A study of Homo sapiens with 6 samples.

Results

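Complement components and regulators were examined as a set of 9 genes, chosen by gene symbol. The components were C1R, C1S, C3 and CFD (factor D), and the regulators were SERPING1 (C1 inhibitor), CFI (factor I), CD46, CD55 and CD59. All 9 were among the 63129 genes listed, and 8 of them had 1 value per library. The row of C1R held 12 values, so its value in each library could not be read and it entered no test.

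RNA was sequenced from ERRAS cells, which are IMR90 primary human lung fibroblasts that carry H-RasV12 fused to the ligand-binding domain of the estrogen receptor. The fusion protein is switched on by tamoxifen, and every library came from cells with the same construct. 3 libraries came from uninduced cells (control mitotic cells) and 3 from cells treated for 4 days with tamoxifen (Ras-induced mitotic cells), at 100 nM per the labels, whereas the methods name 4OHT and give its dose by mass. Both groups were then arrested in mitosis with 1 µM DME, an inhibitor of the kinesin Eg5, and the detached cells were collected. By microscopic scoring, the study found the large majority of collected cells of both groups to be mitotic. The labels do not say whether the libraries of a group came from separate cultures, although the study states that its experiment was repeated independently. P-values here measure the spread between these libraries.

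Complement is a cascade of proteases that tags surfaces with fragments of C3 and C4 and can end in a membrane pore. In the classical pathway, C1q binds a target, C1r activates C1s, and C1s cleaves C4 and C2. Factor D drives the alternative pathway by cleaving factor B. C1 inhibitor inactivates C1r and C1s, factor I degrades C3b and C4b, CD46 is a cofactor of factor I, CD55 speeds the decay of the C3 convertases and CD59 blocks pore assembly. The liver makes most plasma complement, and fibroblasts also secrete several components.

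Promoter sequence was read for the members from RefSeq (GRCh38.p14), and 6 of the 9 had an entry (C1R, CD46, CD55, CD59, CFD and CFI), with 11 annotated starts between them. C1S, C3 and SERPING1 had none. The promoters of C1R and CD59 are shown because these genes had the largest ratio between the authors' group values and the highest level, respectively. Each stretch is the 250 bases before the most upstream annotated start, written 5′ to 3′ on the strand of the gene, and capitals mark a match to the GAS motif. The C1R stretch lies at chr12:7092446-7092695 (minus strand, 54.0% G and C), and the CD59 stretch at chr11:33736480-33736729 (minus strand, 62.0% G and C).
C1R promoter: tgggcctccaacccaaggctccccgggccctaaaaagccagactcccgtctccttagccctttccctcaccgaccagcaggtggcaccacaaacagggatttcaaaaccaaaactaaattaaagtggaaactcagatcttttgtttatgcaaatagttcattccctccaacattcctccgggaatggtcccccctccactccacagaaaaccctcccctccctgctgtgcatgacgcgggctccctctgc
CD59 promoter: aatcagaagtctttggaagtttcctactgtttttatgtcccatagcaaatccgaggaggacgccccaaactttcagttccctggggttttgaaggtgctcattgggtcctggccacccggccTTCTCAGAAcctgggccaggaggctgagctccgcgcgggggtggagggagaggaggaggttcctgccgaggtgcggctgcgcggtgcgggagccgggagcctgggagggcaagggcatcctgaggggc
6 motifs were searched on both strands of all 11 stretches. The GAS motif (TTCNNNGAA) was found in 6.57% of 35116 RefSeq promoter stretches of the same length. In CD59 it began 128 bases before the most upstream start, and the same match lay in the stretch of an overlapping second start. C1R held it only before its other start, which is not printed. Thus 3 of the 11 stretches held the motif, with the same CD59 match in both of its overlapping stretches. The AP-1 motif (TGANTCA, 6.57% of promoters) was found before 1 start of CD59 and in no other member with an entry. No stretch held the ISRE (3.02% of promoters), NF-kappaB (1.73%), C/EBP (TTGCNNCAA, 1.62%) or ETS (CCGGAAGT, 3.42%) motif. These are matches of letters and not measured binding sites.

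Expression was given as FPKM, the fragments mapped to a gene scaled for its length and for the mapped fragments of the library. The 13993 genes whose mean level reached 1 FPKM were tested with limma on log2(FPKM + 1). A gene is called altered where its p, adjusted by Benjamini-Hochberg across those 13993, was 0.05 or less. Log2 fold changes here are differences of log2(FPKM + 1), so those of genes with low FPKM are understated. All adjusted p-values below are from this limma fit. The absolute depth was not used here, and relative to control library 1 the other libraries lay between 0.844 and 1.17. HRAS, the gene of the construct, was at 1174, 1176 and 1140 FPKM in control cells and 1439, 1847 and 1473 FPKM in Ras-induced cells (log2 fold change 0.44, adjusted p = 0.0431, lost in 10 of 13 alternatives, among them each left-out library and the replicate block with an adjusted p of 0.0526), a level that does not measure activation of the fusion protein. All 8 mitotic markers passed the filter, with sums of 1839 to 1919 FPKM in control and 1499 to 1650 FPKM in Ras-induced libraries, and 4 of them were lower (CCNB2, PLK1, BUB1 and HMMR), against 5.67% of all tested genes, all with adjusted p from 0.0604 to 0.0973 when no filter was used. Each of these 4 calls was lost in 4 or more of the 6 fits with a library left out, and that of PLK1 also with the replicate block (adjusted p = 0.0643).

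C1S and SERPING1 were lower in Ras-induced mitotic cells, and the membrane regulators CD46, CD55 and CD59 did not pass the test. C3, CFD and CFI were below the filter. Thus 5 of the 8 readable members were tested, of which 2 were altered. Both were lower and 0 were higher, also at an unadjusted p under 0.05. Of all tested genes, 16.7% were altered, 5.67% lower and 11.0% higher, and at the unadjusted threshold 10.7% were lower and 22.9% higher. The median log2 fold change was -0.0077 over the 5 members and 0.10 over all tested genes. In 2 of the 5 members the groups did not overlap, against 39.9% of all tested genes.

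**Figure D1:**
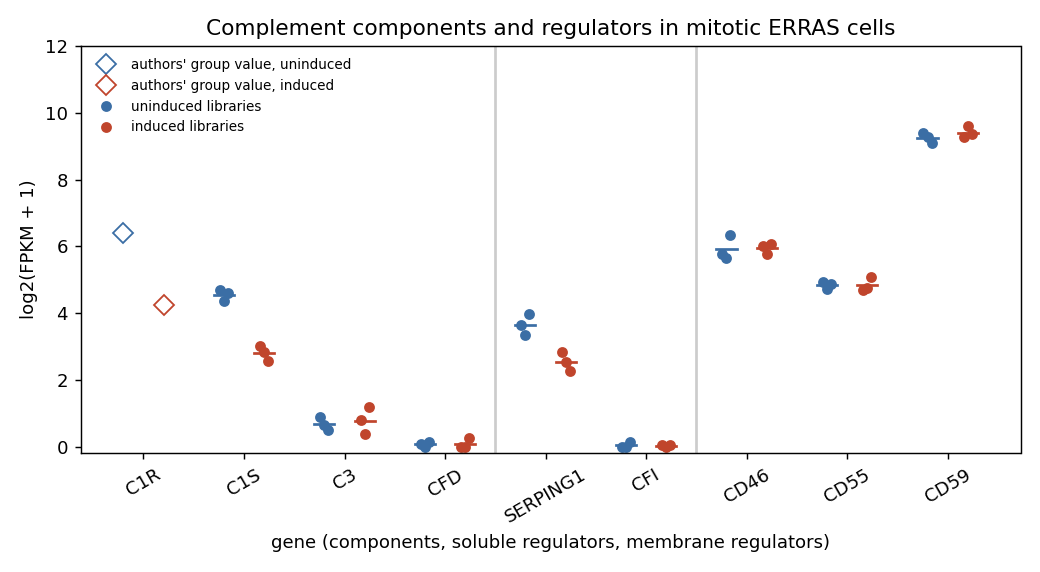
Expression of the 9 complement genes on a log2(FPKM + 1) axis, ordered as components, soluble regulators and membrane regulators. Dots are libraries (3 uninduced, 3 induced), bars are group means, and open diamonds are the authors' group values for C1R, 83.6 and 18.0 FPKM. The induced dots of C1S and SERPING1 all lie below the uninduced dots, while those of CD46, CD55 and CD59 overlap.

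C1S encodes the protease of the C1 complex that cleaves C4 and C2 (ENSG00000182326, GRCh37 chr12:7096351-7178336, plus strand). It was at 25.0, 19.5 and 23.4 FPKM in the control libraries and 7.02, 6.20 and 4.91 FPKM in the Ras-induced libraries. Every Ras-induced library lay below every control library. The mean fell from 22.6 ± 2.79 to 6.05 ± 1.06 FPKM (SD, n = 3 each), a 3.74-fold lower level. The log2 fold change was -1.75 (SE 0.15, 95% interval -2.10 to -1.40, adjusted p = 0.00212), and 1.19% of tested genes had a lower one. C1S was called lower in all 13 alternative settings, including each library left out, with log2 fold changes between -1.90 and -1.63 and adjusted p between 0.00095 and 0.0194.

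In GENCODE 44, C1S shares 229 exonic bases with a protein-coding gene model on its own strand (ENSG00000290146). That model had no readable value among the authors' FPKM, for which the study names another annotation, an Ensembl build. LPCAT3, a lysophospholipid acyltransferase gene, overlaps C1S on the other strand with 0 shared exonic bases. The TruSeq RNA kit that the labels name does not mark strand. LPCAT3 was at 8.55 ± 1.37 FPKM in control and 8.51 ± 1.75 FPKM in Ras-induced cells (adjusted p = 0.962).

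SERPING1 encodes C1 inhibitor, the serpin that inactivates C1r and C1s (ENSG00000149131, GRCh37 chr11:57364860-57386644, plus strand). Its level was 11.4, 9.22 and 14.7 FPKM in the control libraries and 6.09, 4.78 and 3.81 FPKM in the Ras-induced libraries. The groups did not overlap, and the lowest control library was 9.22 FPKM against a highest Ras-induced library of 6.09 FPKM. The mean was 11.8 ± 2.78 FPKM in control and 4.89 ± 1.14 FPKM in Ras-induced cells (SD, n = 3 each), 2.41-fold lower. The log2 fold change was -1.11 (SE 0.21, 95% interval -1.61 to -0.62, adjusted p = 0.0163). The call was lost without control library 1 (adjusted p = 0.0689), without Ras-induced library 2 (adjusted p = 0.0603) and without Ras-induced library 3 (adjusted p = 0.0678). It held in the other 10 alternatives, with adjusted p from 0.0115 to 0.0497, the highest with no filter. In the remaining fits with a library left out, the adjusted p was 0.0423 to 0.0480. The log2 fold change lay between -1.27 and -0.95 over all 13.

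The ratio of C1S to SERPING1 FPKM was 2.18, 2.12 and 1.59 in control and 1.15, 1.30 and 1.29 in Ras-induced libraries, so the groups did not overlap. Its mean was 1.96 ± 0.327 in control and 1.25 ± 0.081 in Ras-induced cells (SD, n = 3 each). The log2 change of SERPING1 exceeded that of C1S by 0.64, with an exact two-sided permutation p of 0.1, the smallest that the 20 labellings of 3 against 3 allow. This pair was compared after the values had been seen.

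**Figure D2:**
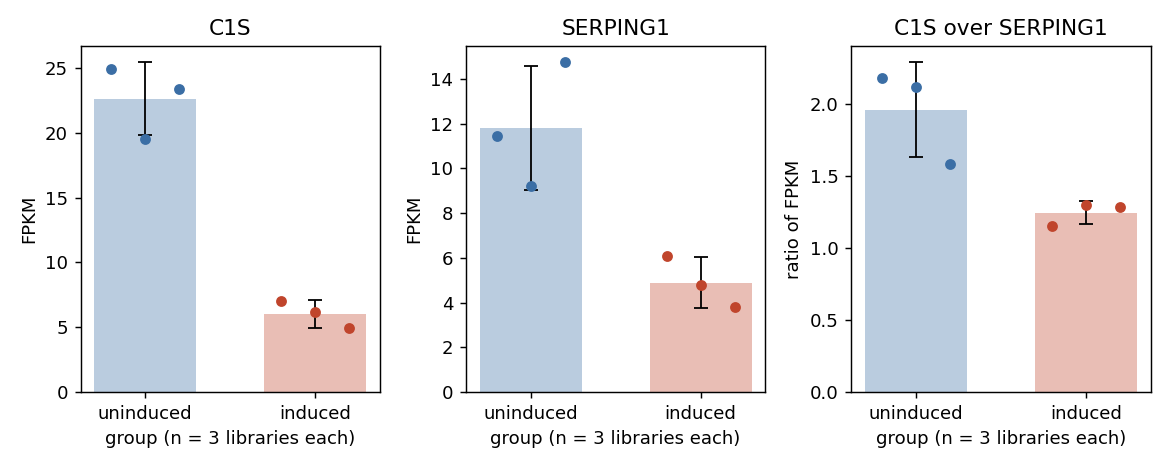
C1S, SERPING1 and the ratio of C1S to SERPING1, in FPKM or as a ratio of FPKM, for uninduced and induced libraries (n = 3 each). Bars are means, error bars are SD and dots are libraries; each induced dot is below each uninduced dot in all panels, with ratios of 1.15 to 1.30 against 1.59 to 2.18.

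C1R encodes the protease that activates C1s, and it is the neighbour of C1S on chromosome 12 (ENSG00000159403, GRCh37 chr12:7187513-7245203, minus strand), with 9176 bases between the annotated ends of both genes. The authors' group value, which carries no SD or n, was 83.6 FPKM for uninduced and 18.0 FPKM for induced cells, a ratio of 4.65. From the same source, C1S went from 21.9 to 5.55 FPKM (ratio 3.96) and SERPING1 from 11.2 to 4.51 FPKM (ratio 2.48). The difference between C1R and these genes could not be tested. The annotated locus of C1R shares 672 exonic bases with C1RL, a C1r-like protease gene. C1RL was at 1.85, 1.19 and 4.24 FPKM in control and 3.16, 2.28 and 1.68 FPKM in Ras-induced libraries, and did not pass the test (log2 fold change 0.054, adjusted p = 0.932).

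The central component and the alternative pathway members were near the lower end of the scale in both groups. C3, whose fragments tag surfaces, was at 0.847, 0.557 and 0.425 FPKM in control and 0.730, 0.301 and 1.26 FPKM in Ras-induced libraries (ENSG00000125730, GRCh37 chr19:6677715-6730573, minus strand). The highest and the lowest C3 value were both in Ras-induced libraries. With no filter on low values, C3 had an adjusted p of 0.830. It shares 1357 exonic bases with a lncRNA on its strand (ENSG00000276980).

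CFD encodes factor D, the protease that cleaves factor B (ENSG00000197766, GRCh37 chr19:859453-867884, plus strand). It was at 0.059, 0 and 0.101 FPKM in control and 0, 0 and 0.207 FPKM in Ras-induced libraries. It shares 255 exonic bases with MED16, a Mediator subunit gene on the other strand, which was at 23.3 to 24.6 FPKM. Without strand, reads of CFD and MED16 there cannot be told apart. CFI encodes factor I (ENSG00000205403, GRCh37 chr4:110652164-110723306, minus strand), and it was at 0, 0 and 0.113 FPKM in control and 0.025, 0 and 0.029 FPKM in Ras-induced libraries. CFI shares 1562 exonic bases with a protein-coding gene model on its strand (ENSG00000285330). Both genes were listed at 0 in libraries of each group, and no difference was detectable at these levels.

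The membrane regulators were the most abundant readable members, and their groups overlapped. CD59, a GPI-anchored inhibitor of pore assembly (ENSG00000085063, GRCh37 chr11:33724556-33758025, minus strand), was at 666, 617 and 543 FPKM in control and 617, 772 and 651 FPKM in Ras-induced libraries. It shares 629 exonic bases with a protein-coding gene model on its strand (ENSG00000284969). It ranked 119 from the highest of the 13993 tested genes by mean level. Its mean was 609 ± 61.6 FPKM in control and 680 ± 81.0 FPKM in Ras-induced cells (SD, n = 3 each), with a log2 fold change of 0.16 (SE 0.12, 95% interval -0.12 to 0.44, adjusted p = 0.398). The log2 fold change was 0.064 without Ras-induced library 2, 0.079 without control library 3 and 0.048 under both other scalings.

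CD46, a transmembrane cofactor of factor I (ENSG00000117335, GRCh37 chr1:207925382-207968858, plus strand), was at 53.8, 49.3 and 80.2 FPKM in control and 64.0, 53.5 and 66.8 FPKM in Ras-induced libraries. The control libraries held both the highest and the lowest value. Its mean was 61.1 ± 16.7 FPKM in control and 61.4 ± 7.01 FPKM in Ras-induced cells (SD, n = 3 each). The log2 fold change was 0.033 (SE 0.19, 95% interval -0.42 to 0.49, adjusted p = 0.924), and its sign differed between settings.

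CD55, the GPI-anchored decay-accelerating factor (ENSG00000196352, GRCh37 chr1:207494864-207560149, plus strand), lies 365232 bases from CD46 in the annotation. It was at 29.8, 25.3 and 28.1 FPKM in control and 24.8, 25.7 and 32.7 FPKM in Ras-induced libraries. Here the Ras-induced libraries held both extremes. Its mean was 27.7 ± 2.27 FPKM in control and 27.7 ± 4.30 FPKM in Ras-induced cells (SD, n = 3 each). The log2 fold change was -0.0077 (SE 0.13, 95% interval -0.31 to 0.29, adjusted p = 0.973), and its sign also differed between settings. None of these 3 genes was called in any of the 13 alternatives.

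CD59 made up most of the summed FPKM of the 3 membrane regulators. Its share was 87.1 ± 3.27% in control and 88.3 ± 2.10% in Ras-induced cells, and the sum was 698 ± 49.0 and 769 ± 74.1 FPKM (SD, n = 3 each). The ratio of CD59 to CD55, which share the GPI anchor, was 22.0 ± 2.57 in control and 24.9 ± 5.01 in Ras-induced cells. The log2 change of CD55 was 0.17 below that of CD59 (-0.17, exact two-sided permutation p = 0.4), a difference within the spread of the libraries. It was -0.025 without Ras-induced library 2, -0.075 without control library 3 and -0.31 without Ras-induced library 3.

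Per length, the order of the control means was CD59, CD46, CD55, C1S, SERPING1, C3, CFD and CFI. The libraries of neighbouring genes did not overlap in control cells, except those of CFD and CFI. As a ratio, CD55 and C1S came closest, with a lowest CD55 value of 25.3 FPKM and a highest C1S value of 25.0 FPKM. In Ras-induced cells CD55 lay well above C1S, and C1S and SERPING1 overlapped in range.

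**Figure D3:**
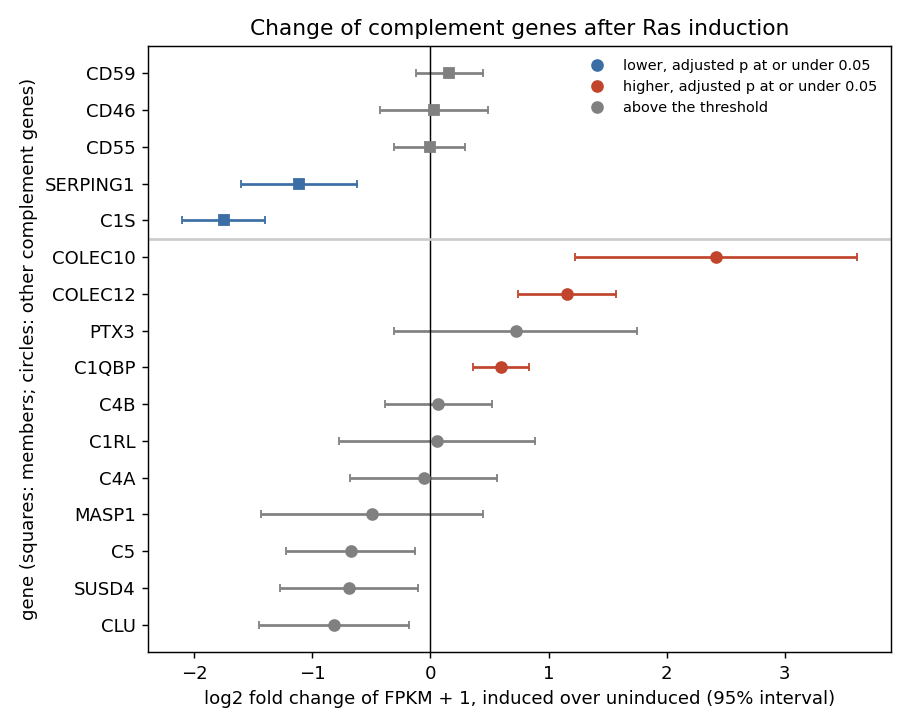
Log2 fold change of FPKM + 1, induced over uninduced, with 95% intervals, for the 5 tested members (squares) and the 11 other tested complement genes (circles). C1S at -1.75 and SERPING1 at -1.11 are the called lower genes; COLEC10, COLEC12 and C1QBP are the called higher genes, and the other intervals are drawn in grey.

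A list of 53 other complement genes was counted in the same fit. 42 were below the filter, 17 of them listed at 0 in every library, and 11 were tested. Of these, 3 were higher and 0 were lower, against 11.0% and 5.67% of all tested genes, while 3 were higher and 3 lower at an unadjusted p under 0.05, against 22.9% and 10.7%. Among the 3 lower ones, C5 and SUSD4 passed the filter through their control libraries. The median log2 fold change of the 11 was 0.054. Of the C1q chains, the lectins MBL2 and the ficolins, the pore components C6 to C9 and the anaphylatoxin receptors, none passed the filter.

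The called genes were COLEC10, COLEC12 and C1QBP. COLEC10, a secreted collectin that binds sugars, was at 8.77, 7.79 and 1.93 FPKM in control and 40.9, 40.8 and 20.8 FPKM in Ras-induced libraries. All 3 Ras-induced libraries lay above the controls, with a log2 fold change of 2.42 (SE 0.50, adjusted p = 0.0233). Its call was lost with no filter (adjusted p = 0.0715) and in 5 of the 6 fits with 1 library left out, with adjusted p from 0.0533 without control library 1, 0.0691 without control library 2 and 0.056 without Ras-induced library 3 to 0.0833 without Ras-induced library 2 and 0.0943 without Ras-induced library 1. COLEC12, a membrane-bound scavenger receptor of the same family, was at 5.37, 6.55 and 8.47 FPKM in control and 17.3, 17.7 and 13.7 FPKM in Ras-induced libraries. Its log2 fold change was 1.16 (SE 0.17, adjusted p = 0.00900), and the adjusted p was 0.0520 without control library 2.

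C1QBP, a mostly mitochondrial protein that also binds the globular heads of C1q, was at 110, 115 and 106 FPKM in control and 148, 185 and 171 FPKM in Ras-induced libraries. Its log2 fold change was 0.60 (SE 0.10, adjusted p = 0.0119), with an adjusted p of 0.0517 without control library 1 and 0.0569 without Ras-induced library 3. The groups of these 3 genes did not overlap.

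Other genes of the list had lower means without passing the test. CLU (clusterin), a fluid-phase inhibitor of pore assembly, was at 199, 212 and 406 FPKM in control and 137, 143 and 159 FPKM in Ras-induced libraries. Its log2 fold change was -0.82 (SE 0.27, adjusted p = 0.0810), and it was -0.49 with an adjusted p of 0.0295 without control library 3. It was also called with the replicate number as a block and all 6 libraries (adjusted p = 0.0474).

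C5, the precursor of the pore's initiating fragment, was at 1.38, 1.81 and 2.72 FPKM in control and 0.819, 0.624 and 1.07 FPKM in Ras-induced libraries (adjusted p = 0.0901). SUSD4, a membrane regulator, was at 1.94, 1.61 and 2.37 FPKM in control and 1.18, 0.360 and 1.07 FPKM in Ras-induced libraries (adjusted p = 0.101). The groups of both genes did not overlap, and both passed the filter through their control libraries. With no filter the adjusted p was 0.161 for C5 and 0.184 for SUSD4.

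PTX3, a pentraxin that binds C1q, was at 56.6, 46.6 and 155 FPKM in control and 134, 102 and 137 FPKM in Ras-induced libraries (log2 fold change 0.72, adjusted p = 0.288). Without control library 3 its log2 fold change was 1.25, with an adjusted p of 0.0187, and without control library 2 it was 0.39, with an adjusted p of 0.602. C4A and C4B, near-identical copies whose reads can be shared, had means of 1.01 to 1.14 FPKM in both groups and adjusted p of 0.899 and 0.832. MASP1, a lectin pathway protease, had means of 1.47 FPKM in control and 0.629 FPKM in Ras-induced cells, so it passed the filter through its control group. Its log2 fold change was -0.50 (adjusted p = 0.413, and 0.584 with no filter). With a library left out that change ran from -0.85 to -0.12. Control library 3 held the highest value for 6 of the 11 tested genes of the list and for 2 of the 5 tested members, against 13.3% of all tested genes.

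Among genes below the filter, CFB (factor B) was at 0.675, 0.757 and 1.38 FPKM in control and 0.593, 0.607 and 0.314 FPKM in Ras-induced libraries. THBD (thrombomodulin), which promotes inactivation of C3b, was at 0.016, 0.050 and 0.041 FPKM in control and 0.420, 0.447 and 1.77 FPKM in Ras-induced libraries. The groups did not overlap for either gene, and with no filter the adjusted p was 0.347 for CFB and 0.189 for THBD. CSMD2, a large membrane protein with complement control repeats, was at 0.768, 0.873 and 0.717 FPKM in control and 0.743, 0.697 and 1.11 FPKM in Ras-induced libraries.

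Inflammatory cytokines and interferons are known inducers of several complement genes. Of 24 such cytokine and signalling genes, 18 were tested, 3 were higher and 1 was lower, against 11.0% and 5.67% of all tested genes, with a median log2 fold change of 0.11. At an unadjusted p under 0.05, 7 were higher and 3 lower (22.9% and 10.7% of all tested genes), and in 10 of the 18 the groups did not overlap, against 39.9%. The receptor genes IFNGR2, TNFRSF1A and IL1R1 had log2 fold changes of 0.34, 0.38 and 0.58 and groups that did not overlap (adjusted p = 0.0548, 0.0582 and 0.0679), and each was called in 1 of 13 alternatives, IL1R1 without Ras-induced library 2 (adjusted p = 0.0350). LIFR, a further receptor gene, went the other way, also with groups that did not overlap (log2 fold change -0.33, adjusted p = 0.120). IL6ST, the shared receptor chain of the IL-6 family, was called only with the replicate block (log2 fold change -0.36, adjusted p = 0.0479, and 0.141 without it). IL1B was at 0.638, 0.681 and 1.02 FPKM in control and 9.03, 3.92 and 7.91 FPKM in Ras-induced libraries (log2 fold change 2.10, adjusted p = 0.00679). Its control mean was 0.779 FPKM, so it passed the filter through its Ras-induced libraries, and with no filter its adjusted p was 0.0271. LIF, a cytokine of the IL-6 family, and CEBPB, a transcription factor of acute-phase genes, were also higher (log2 fold changes 1.34 and 1.15, adjusted p = 0.0340 and 0.0149). STAT3, which acts downstream of IL-6-type receptors, was lower (36.0 ± 2.08 against 28.6 ± 1.98 FPKM, SD, n = 3 each, log2 fold change -0.32, adjusted p = 0.0495). STAT3 lost its call in 10 of 13 alternatives, with the smaller pseudocount (adjusted p = 0.0518), no filter (0.0763), no trend (0.0730) or the replicate block (0.0841), and without each library in turn (adjusted p up to 0.136). LIF lost it in 8 of 13, with no filter (adjusted p = 0.0944), upper-quartile scaling (0.0510) or the replicate block (0.0593), and without any library but control library 3 (adjusted p up to 0.121). CEBPB lost it in 4 of 13, without control library 2 or any of the Ras-induced libraries (adjusted p up to 0.0726).

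IL6 had means of 3.40 and 2.20 FPKM (adjusted p = 0.301). IL1A, below the filter, was at 0.255, 0.603 and 0.190 FPKM in control and 1.21, 0.601 and 1.21 FPKM in Ras-induced libraries. IFNB1, IFNG and OSM were listed at 0 in every library. The relation of these genes to C1S and SERPING1 was not tested.

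CD55 and CD59 are held in the membrane by a GPI anchor, and 15 other genes of GPI-anchored proteins were counted beside them. Of the 11 tested, 2 were higher and 2 were lower, against 11.0% and 5.67% of all tested genes. PLAUR, the urokinase receptor, and SEMA7A, a semaphorin, had log2 fold changes of 0.41 and 1.65 (adjusted p = 0.0381 and 0.0133). THY1, a fibroblast surface protein, and RECK, an inhibitor of matrix metalloproteinases, had log2 fold changes of -1.19 and -0.90 (adjusted p = 0.00280 and 0.0110). PLAUR lost its call in 9 of 13 alternatives, with no filter (adjusted p = 0.0882), upper-quartile scaling (0.0935), no trend (0.0604) or the replicate block (0.0530), and without any library but Ras-induced library 1 (adjusted p up to 0.130). SEMA7A lost it without control library 2 (adjusted p = 0.0682) and Ras-induced library 3 (adjusted p = 0.0598), and RECK without control library 2 (adjusted p = 0.0588). The other 7 did not pass the test. Among them GPC1, a glypican, was at 149 ± 13.6 FPKM in control and 88.4 ± 28.1 FPKM in Ras-induced cells (SD, n = 3 each, log2 fold change -0.79, adjusted p = 0.0508), with groups that did not overlap, and it was called in 5 of 13 alternatives, with adjusted p down to 0.0178 without Ras-induced library 2. At an unadjusted p under 0.05, 2 of the 11 were higher and 4 were lower, against 22.9% and 10.7% of all tested genes. GPC4, a further glypican, below the filter, was at 0.910, 1.49 and 0.542 FPKM in control and 0.198, 0.308 and 0.192 FPKM in Ras-induced libraries.

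Of 9 fibroblast markers, all passed the filter, 4 were lower like C1S and SERPING1 (COL1A2, THY1, LUM and DCN), against 5.67% of all tested genes, and 5 did not pass the test. At an unadjusted p under 0.05, 6 were lower and 1 was higher (10.7% and 22.9% of all tested genes), and the median log2 fold change of the 9 was -1.25. Their summed level was 4894 to 5558 FPKM in control and 3107 to 4344 FPKM in Ras-induced libraries. COL1A1 had means of 1345 ± 180 and 550 ± 289 FPKM (log2 fold change -1.43, adjusted p = 0.0501) and COL3A1 of 253 ± 35.3 and 114 ± 53.0 FPKM (log2 fold change -1.25, adjusted p = 0.0553), each with groups that did not overlap (SD, n = 3 each). COL1A1 was called in 6 and COL3A1 in 4 of 13 alternatives, both among them without Ras-induced library 2 (adjusted p = 0.0331 and 0.0444), and COL1A1 also with the replicate block (adjusted p = 0.0456). FAP had the higher mean in Ras-induced cells (39.0 ± 17.0 against 66.3 ± 3.12 FPKM, SD, n = 3 each, adjusted p = 0.0869, and 0.0168 without control library 3), with groups that did not overlap, and PDGFRB was at a mean of 70.0 FPKM in both groups (adjusted p = 0.930). The call of COL1A2 was lost without control library 2 (adjusted p = 0.0576) and without Ras-induced library 1 (adjusted p = 0.0518). DCN (decorin) was at 184, 234 and 335 FPKM in control and 25.1, 28.2 and 20.8 FPKM in Ras-induced libraries (log2 fold change -3.26, adjusted p = 0.00130), whereas VIM (vimentin) had means of 2149 and 2248 FPKM (adjusted p = 0.772). In bulk RNA of a fibroblast culture, fewer cells that express a gene and less RNA per cell cannot be told apart. The part of the markers in the changes of C1S and SERPING1 was not tested.

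Markers of other cell types differed in level between lists. Of 6 hepatocyte markers none passed the filter, and their sum was at most 0.173 FPKM in any library. Of 7 leukocyte and macrophage markers 1 was tested, CD68, at 25.2 to 30.7 FPKM in control and 30.5 to 35.6 FPKM in Ras-induced libraries (adjusted p = 0.145), while PTPRC was at or near 0 and ITGAM and TYROBP were listed at 0. CD68 made up nearly all of the leukocyte sums, which were 26.0 to 31.3 FPKM in control and 31.1 to 36.2 FPKM in Ras-induced libraries. Of 5 endothelial markers TEK alone was tested, and it was lower (15.3 ± 1.03 against 4.93 ± 0.310 FPKM, SD, n = 3 each, adjusted p = 0.00126). PECAM1 was listed at 0, and the endothelial sums were 14.5 to 16.5 FPKM in control and 4.81 to 5.41 FPKM in Ras-induced libraries. Of 5 epithelial markers 3 were tested and none was altered, against 16.7% of all tested genes, with sums of 69.9 to 77.8 FPKM in control and 79.6 to 84.0 FPKM in Ras-induced libraries. KRT18 had the higher mean in Ras-induced cells (48.15 ± 3.42 against 57.94 ± 1.04 FPKM, SD, n = 3 each, adjusted p = 0.0638), with groups that did not overlap. Those of KRT5 and KRT8 overlapped. EPCAM, below the filter, was at 1.05, 0.880 and 1.80 FPKM in control and 0.272, 0.167 and 0.424 FPKM in Ras-induced libraries (adjusted p = 0.0774 with no filter).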

How the data were processed

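RNA of 6 libraries (3 control, 3 Ras-induced) was sequenced by the authors as poly(A) RNA. Per the processing notes and methods, reads were trimmed with Trim Galore 0.3.0, aligned to hg19 with TopHat2 and Ensembl junctions, and summarised with Cufflinks. The FPKM values deposited by the authors name the group and a number of each column, not the sample. Further columns without a name (18) were not used; they hold extra values of 120 genes, C1R among them, which were left out. The authors also deposited a Cuffdiff comparison. Its group FPKM are quoted as the authors' values, and its fold changes, test statistics, p-values and q-values were not used.

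Genes averaging 1 FPKM or more were tested with limma 3.58.1 in R 4.3.3 (lmFit, eBayes with a trend) on log2(FPKM + 1), two-sided. The pseudocount was 1. Differences between members were tested by exact permutation. The study cites a table of alignment statistics that was not used here, so no counting interval is given. The procedure was first run on simulated data. Positions and overlaps are from GENCODE 44 on GRCh37, which is not the Ensembl build that the study names. The overlapping gene models given by identifier alone had no readable FPKM. Python 3.11.15, pandas 2.3.3, numpy 2.4.6 and matplotlib 3.10.9 made tables and figures. Some genes of the lists (3) are not reported here and were left out of the list counts. Members and lists were chosen with earlier results of these data known. Named were all members, and, of the complement, cytokine and GPI lists, genes past the filter (altered ones first, not every other one) and those below it with a group mean of at least 0.5 FPKM. Alternatives were a pseudocount of 0.1, no filter or a mean of at least 5 FPKM, quantile and upper-quartile scaling, no trend, a stricter call that also needs a log2 change of 1 in either direction, a replicate block and each library left out. The comparison of SERPING1 with C1S was added after seeing the data.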

Additional observations from a re-analysis of the deposited data

How the results depend on the processing

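Of the complement members, 2 were altered under every alternative that kept all 6 libraries, and 1 to 2 with a library left out (1 without control library 1, Ras-induced library 2 or Ras-induced library 3). Of the other complement genes, 3 were altered as reported, 2 to 4 with all libraries, and 1 to 5 with a library left out (1 without control library 1, control library 2 or Ras-induced library 3, and 5 without control library 3). The direction of CD46 turned under quantile normalization (-0.052) and upper-quartile scaling (-0.075), and its log2 fold change ran from -0.10 to 0.24 with a library left out. That of CD55 ran from -0.13 to 0.065. C4B turned under quantile normalization (-0.0055) and C1RL under quantile normalization (-0.023) and upper-quartile scaling (-0.024). With a library left out, C4A ran from -0.18 to 0.17, C4B from -0.0053 to 0.17 and C1RL from -0.22 to 0.41. The causes were not tested. Both scalings moved the middle log2 fold change over all genes from 0.10 to 0.013 and 0.0047. Numbers were not taken to pair the libraries. Deviations of same-numbered libraries correlated at -0.0027, 0.043 and 0.048, and those of differently numbered ones at -0.068 to 0.031. These values do not settle whether the libraries were paired. With the replicate block 2 members and 4 other complement genes were altered, the added one being CLU (adjusted p = 0.0474). A filter at a mean of 5 FPKM left low genes without a value. C1R could not be compared with C1S or SERPING1. The absolute depth was not used here, which limits what can be said of C3, CFD and CFI. The reads carry no strand, which is a further limit for CFD.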
